A study of Mus musculus with 4 samples.

Results

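The antioxidant and glutathione enzymes of the mouse lung were followed through allergen challenge on 4 dual-colour arrays. Members were the genes whose platform symbol begins with Gst, Gpx, Gcl, Gsr, Gss, Prdx, Txn, Hmox, Nqo, Aldh or Akr, with the superoxide dismutases and Cat added and Prdx4 left out. A value on all 4 arrays was required. The rule gave 70 genes of 9153, read by 88 probes, and 2 further genes were lost to a missing value. The rule goes by gene name and has no threshold on a measured level or ratio.

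Challenged lungs came from BALB/cJ mice sensitized to ovalbumin, the main protein of egg white, and then challenged with it. One group was kept in air with UCP, which the labels do not spell out, and the other in particle-free air. The second dye on each array carried a lung RNA pool of 6 control animals, non-sensitized but exposed alike, so sensitization and challenge cannot be told apart. Challenged lung carried Cy5 on array 1 and Cy3 on array 2 of each air. The labels describe a dye swap without saying if separate animals or the same RNA went onto both arrays, so p-values measure only how far arrays differ, and that may be technical.

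Each value is a log2 ratio, challenged lung divided by control pool, where 0 means equal signal and 1 means a doubling. In UCP air 19832 and 19546 probes had a value, and in particle-free air 19439 and 19349 probes, with medians from -0.07 to 0.02. Correlations between arrays over 18160 probes were low, with Spearman's rho from 0.12 to 0.30, and the lowest was between the 2 arrays of particle-free air. The most extreme value on each array was shared by 20 to 58 probes, positive on both Cy5 arrays and negative on both Cy3 arrays. All 4 arrays therefore run the same way, while the overall sign is likely only. It rests on the usual order of the dyes and on 7 genes known from allergic mouse lung, among them Chil3 at 5.58 and Ccl8 at 3.13 averaged over the 4 arrays.

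Glutathione is a small thiol peptide that cells use against peroxides and reactive electrophiles. Glutamate-cysteine ligase and glutathione synthetase build it, glutathione peroxidases spend it on peroxides, and glutathione transferases couple it to reactive compounds. Peroxiredoxins and thioredoxins form a parallel peroxide-reducing chain, and superoxide dismutases, catalase, aldehyde dehydrogenases and aldo-keto reductases remove other reactive products. In lung these enzymes are shared between airway club cells, alveolar epithelium and macrophages. Many of the genes are known targets of the transcription factor NRF2, which binds the antioxidant response element.

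Promoter sequence is shown for 7 members. Gpx1, Txndc5, Gstm1 and Aldh4a1 are the members that differed at least 1.5-fold the same way on all 4 arrays. Prdx1, Gclm and Txnrd1 were added as members above 0 on all 4 arrays that hold the response element core. Txnrd1 is above 0 on all 4 only as the average of its 2 probes. Core holders that averaged below 0, Gstm5 at -0.53 and Sod1 at -0.19, are not shown. The stretches printed therefore do not show how core and ratio go together. Each stretch is the 250 bases before the gene's start on its own strand, from RefSeq on GRCm38.p6. Capitals mark the core TGACNNNGC on either strand, and where RefSeq lists several starts, one whose stretch holds the core was taken, otherwise the first listed.
Gpx1, chr9:108338830-108339079, plus strand: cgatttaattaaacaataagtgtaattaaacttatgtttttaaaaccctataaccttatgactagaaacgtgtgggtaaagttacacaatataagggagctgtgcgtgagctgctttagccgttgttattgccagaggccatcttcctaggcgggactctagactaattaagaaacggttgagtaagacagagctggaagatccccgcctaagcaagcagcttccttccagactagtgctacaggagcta
Txndc5, chr13:38527915-38528164, minus strand: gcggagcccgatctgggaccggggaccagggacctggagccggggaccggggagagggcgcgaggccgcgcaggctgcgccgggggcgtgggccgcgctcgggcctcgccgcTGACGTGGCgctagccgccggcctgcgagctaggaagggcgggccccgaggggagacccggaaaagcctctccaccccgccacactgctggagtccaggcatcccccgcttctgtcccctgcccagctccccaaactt
Prdx1, chr4:116685349-116685598, plus strand: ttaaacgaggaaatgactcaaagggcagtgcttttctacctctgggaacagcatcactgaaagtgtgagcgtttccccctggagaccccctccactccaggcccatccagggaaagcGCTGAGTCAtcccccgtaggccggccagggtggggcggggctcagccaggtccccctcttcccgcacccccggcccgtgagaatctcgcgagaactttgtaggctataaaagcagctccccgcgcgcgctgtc
Gclm, chr3:122245307-122245556, plus strand: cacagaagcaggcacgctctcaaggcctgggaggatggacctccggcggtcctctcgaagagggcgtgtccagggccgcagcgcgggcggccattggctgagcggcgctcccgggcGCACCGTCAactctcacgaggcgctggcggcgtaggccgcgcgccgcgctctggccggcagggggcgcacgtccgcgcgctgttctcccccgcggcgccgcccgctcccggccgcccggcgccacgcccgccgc
Txnrd1, chr10:82858956-82859205, plus strand: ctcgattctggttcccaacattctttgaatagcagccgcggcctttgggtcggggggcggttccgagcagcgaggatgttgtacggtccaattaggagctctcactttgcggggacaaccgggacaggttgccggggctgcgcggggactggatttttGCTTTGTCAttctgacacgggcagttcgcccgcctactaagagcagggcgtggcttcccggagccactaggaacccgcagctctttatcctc
Gstm1, chr3:108017974-108018223, minus strand: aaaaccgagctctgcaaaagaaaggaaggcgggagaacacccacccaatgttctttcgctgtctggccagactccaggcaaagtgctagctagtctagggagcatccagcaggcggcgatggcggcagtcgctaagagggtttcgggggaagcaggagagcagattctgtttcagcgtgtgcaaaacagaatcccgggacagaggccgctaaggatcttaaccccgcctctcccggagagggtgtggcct
Aldh4a1, chr4:139622644-139622893, plus strand: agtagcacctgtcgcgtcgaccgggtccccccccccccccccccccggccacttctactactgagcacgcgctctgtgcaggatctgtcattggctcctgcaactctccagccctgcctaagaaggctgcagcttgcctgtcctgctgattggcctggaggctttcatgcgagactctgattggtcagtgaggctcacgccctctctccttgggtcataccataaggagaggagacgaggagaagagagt

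Of the members, 60 had a promoter entry, and 10 of these (16.7%) held the core in the 250 bases of at least 1 listed start, against 11.5% of 27025 genes. Among the 10, Prdx1, Txndc5, Txnrd1, Gclm and Txndc11 had positive log2 ratios on all 4 arrays and none was negative on all 4. Their median log2 ratio was 0.25, against -0.10 for the 50 members without the core, of which 8 were positive on all 4 arrays. Over all measured genes no such gap was seen: 14.8% of 1045 genes with the core and 14.1% of 6366 without it were positive on all 4 arrays, and the medians were -0.01 in both. The contrast among members rests on 10 genes, among them Txndc2, whose value is not usable, and was not tested. The Prdx1 core begins 133 bases before the start, the Gclm core 134 and the Txndc5 core 138. A match of these letters is a description and not a measured binding site.

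The first comparison asked what challenge changed in these enzymes whatever the air. Apart from Txndc2, whose value is not usable, Gpx1, Gpx7, Prdx1 and Txndc5 had the highest log2 ratios, and Aldh4a1, Gstm1, Aldh3a1, Gstt4 and Gstz1 the lowest. As a whole the family was centred, with 33 members above and 37 below 0 and a median log2 ratio of -0.05, against -0.01 over all genes. Of the members, 27 (38.6%) had the same sign on all 4 arrays, 15 above and 12 below, against 28.3% of all genes. At least 1.5-fold on all 4 arrays were 4 members (5.71%), Gpx1 and Txndc5 above and Gstm1 and Aldh4a1 below, against 2.17% of all genes. Counted by single probes, 7 genes reached this, with 1 probe each of Gclc, Gsto1 and Gstz1 added. That is 10.0% of members, against 3.24% of all genes counted by probe.

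No member rose or fell by the model: limma with Benjamini-Hochberg adjustment passed 0 of 70 in the averaged effect, where 9 of 9153 genes (0.0983%) passed, and the smallest adjusted p of a member was 0.0881. At an unadjusted p under 0.05 lay 17 members (24.3%), against 15.6% of all genes. Of these 8 were above and 9 below 0, against 8.06% and 7.56% of all genes. Fewer members lay under that unadjusted p without array 1 of UCP air, but the share of all genes was not counted for that fit. Values of named members are therefore given as measured, array by array.

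**Figure D1:**
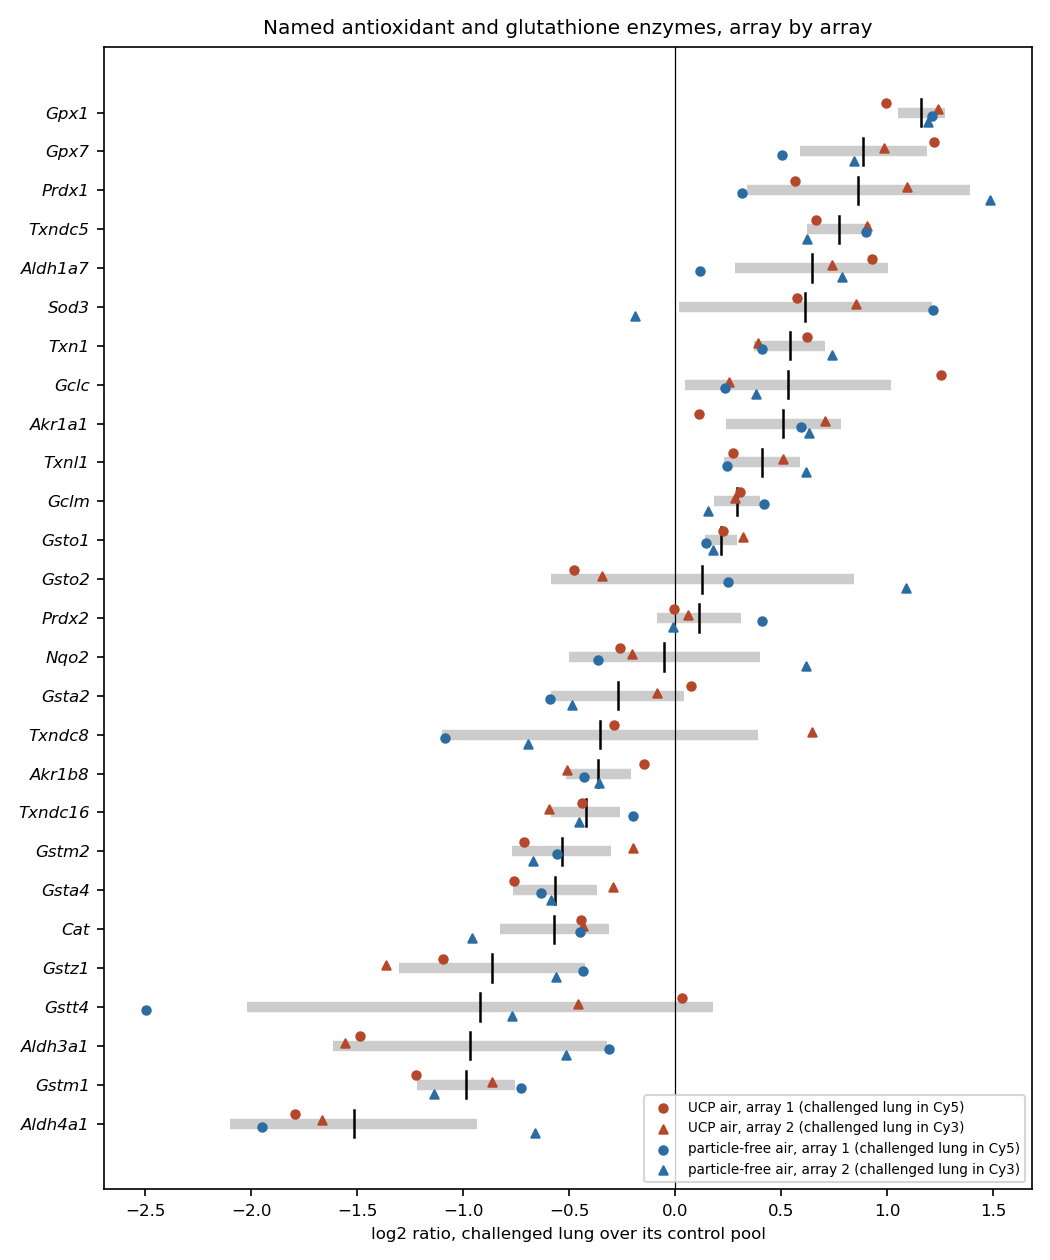
Log2 ratio, challenged lung divided by control pool (horizontal axis), on each of the 4 arrays for 27 named members, with UCP air in red and particle-free air in blue. Black ticks are means and grey bars 1 SD over the 4 arrays (n = 4); Gpx1 lies between 0.997 and 1.24 on every array, and Gstm1 between -1.22 and -0.73.

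Enzymes that make glutathione were all above 0 on average. Gclc, the catalytic subunit of glutamate-cysteine ligase, had log2 ratios of 1.25 and 0.26 on the arrays of UCP air and 0.24 and 0.38 on those of particle-free air. Array 1 of UCP air stood apart there. Gclm, the modifier subunit of the same ligase, lay at 0.31 and 0.28 in UCP air and at 0.42 and 0.16 in particle-free air, with a mean of 0.29 ± 0.11 (SD, n = 4). Gss, the synthetase of the second step, averaged 0.15. None of the 3 had an unadjusted p under 0.05.

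The Gclc average hides a disagreement between its probes. One probe read 1.38 and 1.28 in UCP air and 1.03 and 1.48 in particle-free air, a mean log2 ratio of 1.29 ± 0.19 (SD, n = 4, limma adjusted p = 0.118 over all probes). The other probe read 1.12 and -0.77 in UCP air and -0.56 and -0.71 in particle-free air, a mean of -0.23 ± 0.91 (SD, n = 4). The probes agree only on array 1 of UCP air, and no value here tells which of them reads the Gclc transcript.

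Glutathione peroxidases went in both directions, 3 above and 4 below 0. Gpx1, the selenoenzyme that reduces hydrogen peroxide in the cytosol, read 0.997 and 1.24 in UCP air and 1.21 and 1.19 in particle-free air. The arrays lay close together, at a 2.24-fold level on average and a mean log2 ratio of 1.16 ± 0.11 (SD, n = 4, limma adjusted p = 0.0881). Gpx7, a peroxidase of the endoplasmic reticulum, read 1.22 and 0.99 in UCP air and 0.51 and 0.84 in particle-free air, so the airs do not overlap. Its mean was 0.89 ± 0.30 (SD, n = 4, limma adjusted p = 0.13). Gpx4, which reduces lipid peroxides in membranes, averaged -0.45, with array 2 of UCP air at 0.33 and the other 3 arrays below 0. Gpx2, Gpx5, Gpx6 and Gpx8 averaged 0.30, -0.11, -0.42 and -0.10.

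Glutathione transferases lay mostly below 0, 12 of 17, against 4734 of 9153 genes. Their median log2 ratio was -0.31, against -0.01 over all genes. At an unadjusted p under 0.05 were 5 of them, all below 0, where 7.56% of all genes were. Gstm1, a mu-class enzyme that conjugates electrophiles, read -1.22 and -0.86 in UCP air and -0.73 and -1.14 in particle-free air. All 4 arrays were low, a 1.98-fold lower level and a mean of -0.99 ± 0.23 (SD, n = 4, limma adjusted p = 0.128).

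The other mu-class genes averaged below 0, Gstm5 only through 1 array. Gstm2 read -0.71 and -0.20 in UCP air and -0.56 and -0.67 in particle-free air, with a mean of -0.53 ± 0.23 (SD, n = 4, limma adjusted p = 0.252). Gstm3 averaged -0.41 ± 0.28 (SD, n = 4). Gstm5 averaged -0.53, but 1 of its 2 probes read -4.52 on array 1 and 1.39 on array 2 of particle-free air. Without that array 1 the other 3 arrays average 0.06. Genes of this class have closely related sequences, and cross-hybridisation between them was not tested.

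Gstz1, an enzyme of tyrosine breakdown that carries the transferase fold, read -1.10 and -1.36 in UCP air and -0.44 and -0.56 in particle-free air. Both of its probes were below 0 on every array, with means of -0.63 and -1.09. Gsta4, which conjugates the lipid peroxidation product hydroxynonenal, read -0.76 and -0.29 in UCP air and -0.64 and -0.58 in particle-free air. Its mean was -0.57 ± 0.20 (SD, n = 4, limma adjusted p = 0.226). Gstt4 had a mean of -0.92 that rests mainly on array 1 of particle-free air, at -2.50. Its other arrays read 0.03 and -0.46 in UCP air and -0.77 in particle-free air, and these 3 average -0.40.

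Gsto1, an omega-class enzyme that also reduces dehydroascorbate, averaged 0.22 ± 0.07 (SD, n = 4), with 0.23 and 0.32 in UCP air and 0.15 and 0.18 in particle-free air. That small value again combines unlike probes. One of its 3 probes read 0.82 and 0.80 in UCP air and 1.02 and 0.85 in particle-free air, a mean of 0.87 ± 0.10 (SD, n = 4, limma adjusted p = 0.156 over all probes). The other 2 probes averaged -0.05 and -0.17. The placing of Gsto1 as the highest transferase therefore depends on which probe is read.

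**Figure D2:**
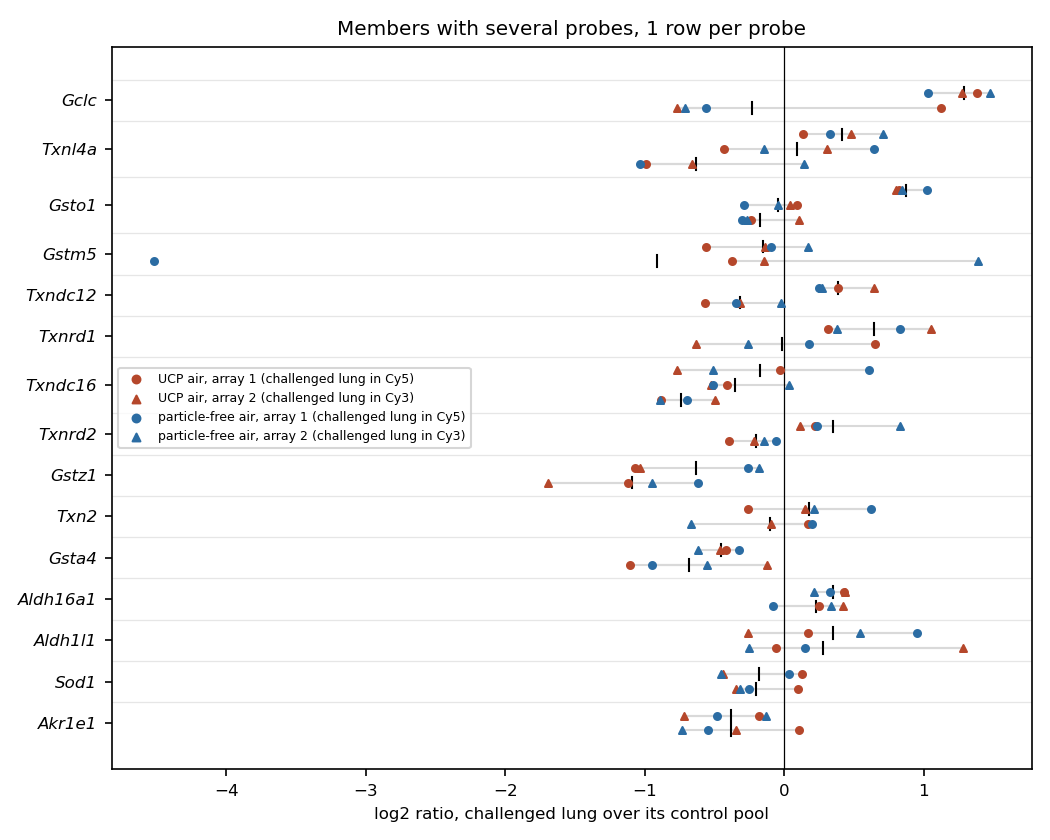
Log2 ratio on each array (horizontal axis) for the 15 members with several probes, 1 row per probe, UCP air in red and particle-free air in blue, black ticks marking each probe's mean. The probes of Gclc lie 1.52 apart, those of Txnl4a and Gsto1 1.05 and 1.04 apart, and those of Sod1 and Akr1e1 0.02 or less.

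Probe disagreement was not peculiar to these genes. Mean log2 ratios of probes for 1 gene differed by more than 1 in 3 of 15 members (20.0%) and in 12.9% of the 2561 genes with several probes. The median gap was 0.55 in members and 0.41 in all such genes. The third member with such a gap was Txnl4a, a splicing factor that shares the thioredoxin fold. The remaining 55 members had a single probe, so no such check exists for Gpx1, Gpx7, Gstm1, Prdx1, Aldh3a1 or Aldh4a1.

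Both peroxiredoxins and 6 of the 9 genes grouped as thioredoxin system averaged above 0, as did 4419 of 9153 genes. The median of the 9 was 0.07. That group goes by gene name and includes the splicing factor Txnl4a and the inhibitor Txnip. Prdx1, a peroxiredoxin of the cytosol, read 0.57 and 1.10 in UCP air and 0.31 and 1.49 in particle-free air, a mean of 0.86 ± 0.53 (SD, n = 4, limma adjusted p = 0.252). Both arrays with challenged lung in Cy3 were above both arrays in Cy5. Prdx2, abundant in red cells, read -0.01 and 0.06 in UCP air and 0.41 and -0.01 in particle-free air. Txn1, the cytosolic thioredoxin, read 0.62 and 0.39 in UCP air and 0.41 and 0.74 in particle-free air, all above 0 and a mean of 0.54 ± 0.17 (SD, n = 4, limma adjusted p = 0.226). Txnl1, a thioredoxin-like protein, read 0.27 and 0.51 in UCP air and 0.25 and 0.62 in particle-free air.

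Txnrd1, the cytosolic reductase that recharges thioredoxin, averaged 0.31 ± 0.22 (SD, n = 4), with probe means of 0.64 and -0.02. The mitochondrial pair Txn2 and Txnrd2 averaged 0.04 and 0.07, and Txnip, an inhibitor of thioredoxin, averaged -0.05. Txn1 and Txnl1, 2 of the 9 genes of this group, lay above 0 at an unadjusted p under 0.05, as did 8.06% of all genes.

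Genes that carry a thioredoxin domain include folding enzymes of the secretory pathway. Txndc5, a protein disulfide isomerase of the endoplasmic reticulum, read 0.66 and 0.91 in UCP air and 0.90 and 0.62 in particle-free air. All 4 arrays were high, a 1.71-fold level with a mean of 0.77 ± 0.15 (SD, n = 4, limma adjusted p = 0.147). Txndc16 read -0.44 and -0.59 in UCP air and -0.20 and -0.46 in particle-free air. Txndc8, known from sperm, read -0.29 and 0.65 in UCP air and -1.09 and -0.69 in particle-free air. Txndc2, also known from sperm, read 17.16, the ceiling that 20 probes share on that array, and 0.69 in UCP air, with -0.24 and 0.04 in particle-free air. Its average has no use, and it is left out of the plots of roles and of airs, which show 69 members.

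Of the enzymes against superoxide and hydrogen peroxide, Cat, the peroxisomal catalase, read -0.44 and -0.43 in UCP air and -0.45 and -0.96 in particle-free air. All arrays were low, with a mean of -0.57 ± 0.26 (SD, n = 4, limma adjusted p = 0.229). Sod3, the extracellular dismutase, read 0.58 and 0.86 in UCP air and 1.22 and -0.19 in particle-free air, and its mean of 0.61 ± 0.60 (SD, n = 4) is as large as its spread. Sod1 of the cytosol and Sod2 of mitochondria averaged -0.19 and 0.06. Nqo2, a quinone reductase, read -0.26 and -0.20 in UCP air and -0.36 and 0.62 in particle-free air. Hmox1, the inducible heme oxygenase, had no value on array 1 of particle-free air and was no member, and its other arrays read -3.44 and -0.34 in UCP air and -3.32 in particle-free air.

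Aldehyde dehydrogenases lay on both sides, 6 above and 7 below 0. Aldh4a1, a mitochondrial enzyme of proline breakdown, read -1.80 and -1.67 in UCP air and -1.95 and -0.66 in particle-free air. This is a 2.86-fold lower level with a mean of -1.52 ± 0.58 (SD, n = 4, limma adjusted p = 0.135). Aldh3a1, which oxidises aldehydes from lipid peroxidation, read -1.49 and -1.56 in UCP air and -0.31 and -0.52 in particle-free air. Its mean was -0.97 ± 0.65 (SD, n = 4, limma adjusted p = 0.109). On the high side Aldh1a7 read 0.93 and 0.74 in UCP air and 0.12 and 0.79 in particle-free air, a mean of 0.64 ± 0.36 (SD, n = 4, limma adjusted p = 0.23). Its relative Aldh1a1, which makes retinoic acid, averaged -0.15, and Aldh2, which removes acetaldehyde, -0.23.

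Aldo-keto reductases lay 2 above and 5 below 0. Akr1a1, the aldehyde reductase, read 0.11 and 0.71 in UCP air and 0.59 and 0.63 in particle-free air. The mean was 0.51 ± 0.27 (SD, n = 4, limma adjusted p = 0.276). Akr1b8, an aldose-reductase-like enzyme, read -0.15 and -0.51 in UCP air and -0.43 and -0.36 in particle-free air. Akr1e1 averaged -0.38, with its 2 probes 0.0013 apart.

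**Figure D3:**
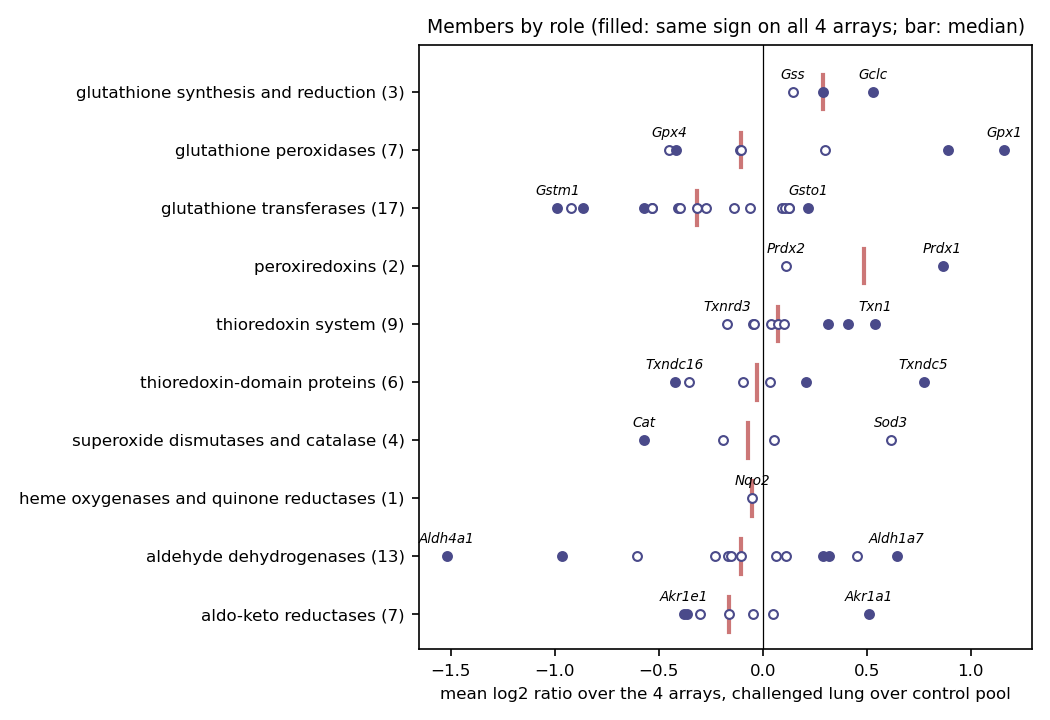
Mean log2 ratio over the 4 arrays (horizontal axis) of 69 members in 10 role groups, with the number of genes in brackets, filled points for genes with the same sign on all 4 arrays and a bar at each group's median. Of the 17 transferases 12 lie below 0, against 4734 of 9153 genes. Gpx1 at 1.16 is the highest member shown and Aldh4a1 at -1.52 the lowest.

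Nearness in log2 ratio was measured as Euclidean distance over the 4 arrays. Genes were not centred, so the distance goes by level as well as by pattern. The members nearest to Gpx1 were Txndc5 at a distance of 0.80, Gpx7 at 0.86 and Prdx1 at 1.05. Nearest to Gstm1 were Gstz1 at 0.83, Gsta4 at 0.92 and Cat at 0.95. Spread over the arrays was similar to that of other genes, with a median SD of 0.31 in members and 0.35 in all genes. The arrays split by dye in 26 members (37.1%), against 37.0% of all genes. Of the members given array by array, Akr1a1, Aldh4a1, Gclm, Gsta4, Nqo2, Prdx1, Txndc16 and Txnl1 split this way.

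The next comparison asked how challenge acted in each air. In UCP air limma passed 0 members at an adjusted p of 0.05, against 0.0219% of all genes, and 9 members (12.9%) lay at an unadjusted p under 0.05, against 9.37% of all genes. Of these 4 were above and 5 below 0, against 4.45% and 4.93% of all genes. Gpx1, Gpx7, Txndc5 and Aldh1a7 were above, and Aldh3a1, Gstz1, Aldh4a1, Gstm1 and Txndc16 below. Without array 1 of UCP air the count was lower, but the share of all genes was not counted for that fit. In particle-free air limma again passed 0 members, against 0.0109% of all genes, with 14 (20.0%) at an unadjusted p under 0.05, against 11.3% of all genes. Of these 4 were above and 10 below 0, against 5.58% and 5.7% of all genes. Those below included 6 of the 17 transferases. The count of 14 was lower with any 1 array left out, also an array of UCP air, through the shared estimate of spread. The share of all genes was not counted for those fits.

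UCP minus particle-free air tests whether the ratio of challenged lung to control pool differs between the airs. Controls were exposed alike, so a difference between control pools cannot be told apart from one between challenged lungs. By limma 0 members passed, as did 0.0% of all genes, the smallest adjusted p was 0.979, and 2 members (2.86%), Aldh3a1 and Gsto2, lay at an unadjusted p under 0.05, against 3.94% of all genes. Both had lower ratios in UCP air, against 2.15% of all genes. The count of 2 was higher without either array of particle-free air and lower without either array of UCP air. The share of all genes was not counted for those fits. The 2 arrays of each air did not overlap in 21 members (30.0%), against 32.3% of all genes.

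The log2 ratio of Aldh3a1 to its control pool was lower in UCP air than in particle-free air. It averaged -1.52 ± 0.05 and -0.41 ± 0.14 respectively (SD, n = 2 arrays each). The difference was -1.11 ± 0.26 (SE, limma adjusted p = 0.979), and a difference between the control pools could also give it. Gstz1 averaged -1.23 ± 0.19 in UCP air and -0.50 ± 0.09 in particle-free air (SD, n = 2 each). Gsto2, the second omega-class enzyme, lay below 0 in UCP air, at -0.48 and -0.35, and above 0 in particle-free air, at 0.25 and 1.09. Txndc8 and Gstt4 had differences of the other sign, 1.07 and 1.42, each with arrays of an air far apart. Gsta2, an alpha-class enzyme, read 0.07 and -0.09 in UCP air and -0.59 and -0.49 in particle-free air. By contrast Gpx1 averaged 1.12 ± 0.17 in UCP air and 1.202 ± 0.01 in particle-free air, and Gstm1 averaged -1.04 ± 0.25 in UCP air and -0.93 ± 0.29 in particle-free air (SD, n = 2 each). Their differences of -0.08 ± 0.27 and -0.11 ± 0.31 (SE) were smaller than their errors.

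**Figure D4:**
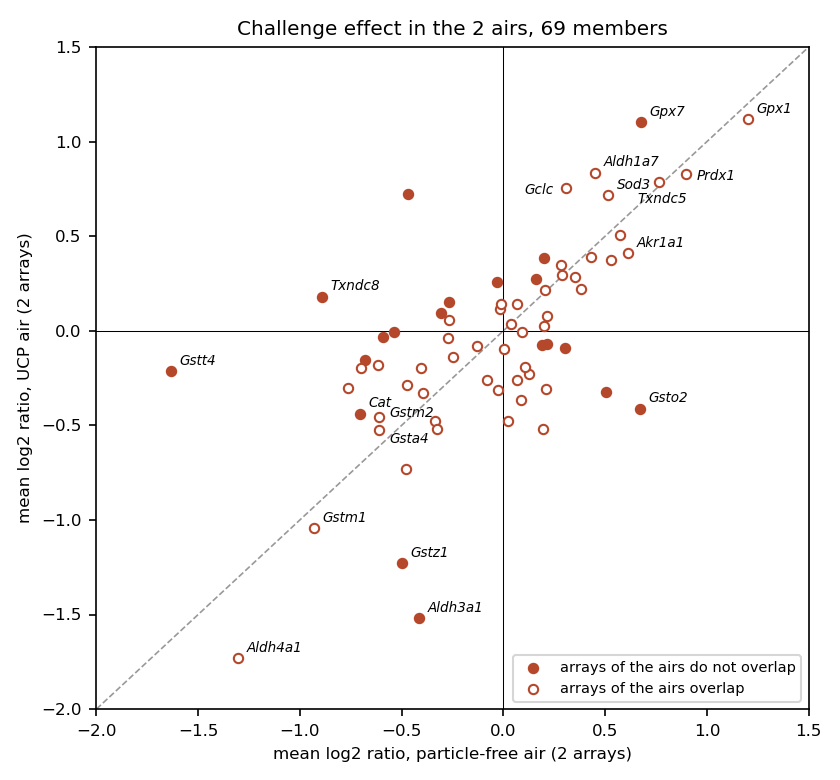
Mean log2 ratio of 69 members in UCP air (vertical axis) against particle-free air (horizontal axis), 2 arrays each, with the dashed line marking equal effects and filled points marking genes whose arrays do not overlap between the airs. Gpx1 and Gstm1 sit near the line, and Aldh3a1 and Gstz1 below it.

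Marker lists of other tissues had unlike medians in the airs, although none of their genes passed the adjusted test of UCP minus particle-free air. Heart and striated muscle markers (15 of 18 measured) had median log2 ratios of -1.90 and -1.86 on the arrays of UCP air and 0.04 and -0.06 on those of particle-free air. Thymus and T cell markers (8 of 14) had medians of -1.28 and -0.95 in UCP air and -0.18 and -0.21 in particle-free air. Fat markers (9 of 14) had -1.20 and -1.50 in UCP air and -0.73 and -0.94 in particle-free air. Liver markers (16 of 21) had 0.51 and 0.25 in UCP air and 2.83 and 2.38 in particle-free air. Their part in the values of Aldh3a1, Gstz1, Gsto2, Aldh4a1 and other members was not tested.

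Within the lung, macrophage markers (11 of 17 measured, 9 above 0) had median log2 ratios of 0.97 and 0.92 in UCP air and 1.04 and 1.01 in particle-free air, with Ctss at 2.27, Mrc1 at 1.82 and Lgals3 at 1.82. Lyz2 and Marco, also macrophage markers, averaged -0.34 and -0.36. Club cell markers (5 of 11, 3 below 0) had medians of -0.28 and -0.16 in UCP air and -0.87 and -1.16 in particle-free air. The club cell enzymes Cyp2f2 and Cyp4b1 averaged -1.29 and -0.99. Bpifa1 averaged -0.76, and Scgb3a1, the highest of the 5, averaged 0.13. Alveolar type 2 markers (6 of 10, 4 below 0) had medians from -0.33 to -0.004. Sftpb, a surfactant protein, was the lowest of them at -0.88, and the highest averaged 0.07. Eosinophil markers (4 of 10, all above 0) had medians from 0.42 to 0.99, neutrophil markers (9 of 12, 8 above 0) from 0.36 to 0.89, and red cell markers (6 of 13, 5 below 0) from -0.59 to -0.20. In whole lung, fewer cells of a type and less RNA per cell cannot be told apart, and the part of these cells in the members' values was not tested.

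Other genes of the pathway were read from fixed lists, and none of their members passed the adjusted test. Of 12 measured NRF2-linked genes outside the family 4 lay above and 8 below 0, with a median log2 ratio of -0.19. At an unadjusted p under 0.05 were 3 above and 2 below, against 8.06% and 7.56% of all genes. Among them the ferritin subunits Fth1 and Ftl1 averaged 0.77 ± 0.13 and 0.70 ± 0.27, while Ephx1, an epoxide hydrolase, and Taldo1, which feeds NADPH supply, averaged -0.88 ± 0.19 and -0.82 ± 0.28 (SD, n = 4 each). Of 10 glutaredoxin and thiol repair genes 6 lay above 0, led by Selenop, the plasma selenium carrier, at 0.78 ± 0.02 (SD, n = 4). Of 11 genes for glutathione breakdown and cysteine supply 7 lay above 0, with a median of 0.24, and Ggt6, of the gamma-glutamyltransferase family, averaged -0.57.

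Of 5 membrane transferase and leukotriene genes 2 lay above 0. Alox5ap, the helper protein of leukotriene synthesis, averaged 0.97 ± 0.32, and Mgst2 and Mgst3, membrane glutathione transferases, 0.17 ± 0.07 and -0.27 ± 0.23 (SD, n = 4 each). The NADPH supply list had 3 genes, 1 above 0. Of 5 oxidant producers 3 lay above 0, with the phagocyte oxidase subunits Ncf4 and Cyba at 0.87 ± 0.39 and 0.59 ± 0.69 (SD, n = 4 each). Cybb, the catalytic subunit of that oxidase, averaged -0.47, with -4.33 on array 2 of UCP air and 0.39 to 1.11 on the other arrays.

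**Figure D5:**
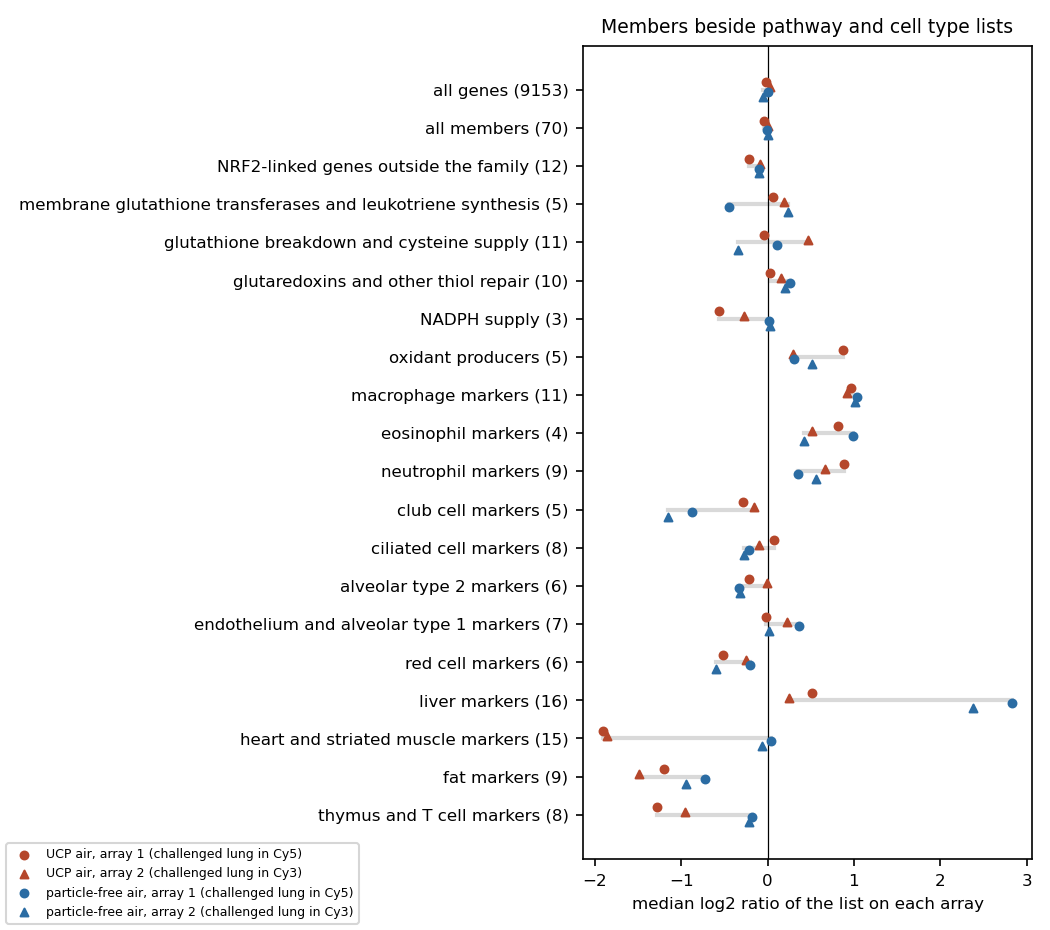
Median log2 ratio on each array (horizontal axis) for all genes, all members, 6 pathway lists and 12 cell type lists, with the number of genes measured in brackets, UCP air in red and particle-free air in blue. The members' medians lie within 0.05 of 0 on every array, while liver and heart marker medians lie apart between the airs.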

How the data were processed

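Lung RNA was compared on 4 dual-colour arrays, 2 per air. Per the labels' protocols, 20 µg of total RNA from individual organs was labelled indirectly with Cy3 or Cy5 and hybridised with a pool from 6 control animals. The authors deposited 1 log2 ratio per probe and array. How images were read and ratios normalized is not given in the sources used here. Without brightness values no dim probes could be filtered, and 4 arrays limit the precision.

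Of 20205 probes, 13852 had 1 platform symbol, 0 had several and 6353 had none. The 12532 named probes with a value on all 4 arrays were averaged into 9153 genes. Values were not centred or scaled further.

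All 4 arrays entered 1 linear model per gene in limma 3.58.1 under R 4.3.3, with a coefficient for each air, 2 residual and 2.37 prior degrees of freedom, eBayes, two-sided tests, and Benjamini-Hochberg adjustment over all genes at 0.05. Because each pool is 1 control sample, variation among control animals is not in the error. The fit was also tried on simulated data, with the same spread in every gene and equal shifts on all arrays. These data differ from that, so the trial is no evidence on the values given here. Alternatives were centring, scaling, dye orientation as a replicate block, single probes, missing values allowed, robust eBayes, arrays averaged per air, each array left out, and, added after the data were seen, values at an array's ceiling left out.

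Members and lists were chosen with earlier results of these data known. Genes given array by array were the 4 markers Gpx1, Gstm1, Gclc and Gsto1, members past the threshold or at least 1.5-fold the same way on all 4 arrays, the 12 with the smallest p in the averaged effect, the 6 with the smallest p in each other comparison, and the first 2 of each role group. Txndc2, Hmox1, Gstm5, Gstm3, Txnl4a, Lyz2, Marco and Cybb were named after their values were seen. In each fixed list outside the family up to 4 other genes were named, those with the smallest p.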

Additional observations from a re-analysis of the deposited data

Results flagged for a closer look

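Gsto2 was below 0 on both arrays of UCP air (-0.48 and -0.35) and above 0 on both arrays of particle-free air (0.25 and 1.09), a difference of -1.08. The difference was tested by limma across all genes and did not pass (adjusted p = 0.979). With 2 arrays per air, no array could be tested for standing apart within its group.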

How the results depend on the processing

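In none of the alternatives that keep all 4 arrays did a member pass an adjusted p of 0.05, in any of the 4 comparisons. Leaving out 1 array at a time gave 0 to 1 calls in the averaged effect, in UCP air and in the difference between airs, the 1 call being Txndc2 at its ceiling value, and 0 in particle-free air. Counts at an unadjusted p under 0.05 ran from 10 to 19 in the averaged effect (17 as reported), 3 to 13 in UCP air (9), 6 to 13 in particle-free air (14) and 1 to 7 in the difference (2). Members with no overlap between the airs ran from 43 to 49 (21), which follows from fewer arrays per air, and members at least 1.5-fold on all remaining arrays from 4 to 6 (4). Counted by single probes, 7 members (10.0%) reached 1.5-fold on all 4 arrays, against 3.24% of all genes. With the replicate block, which is also the dye orientation, 0 members passed the adjusted test. At an unadjusted p under 0.05 lay 14, 9, 10 and 3 members in the averaged effect, UCP air, particle-free air and the difference. For this fit too the share of all genes was not counted. Array 1 minus array 2 correlated at 0.0826 between the airs over 9124 genes, leaving out genes with a ceiling value, and nothing in the labels pairs the samples beyond the dye. Among the 27 named members, Gsto2 ran from -0.081 to 0.338 when 1 array was left out. Its sign turned without array 2 of particle-free air. Nqo2 ran from -0.2965 to 0.1935, its sign turning without array 1 of particle-free air. The other 25 kept their sign, with single probes read by the probe of smallest p in each gene. Read by their other probes, Gclc at -0.23 and Gsto1 at -0.05 and -0.17 turned sign. The adjusted p of Gpx1 ran from 0.0715 to 0.482. No brightness was used, so a ratio from dim spots cannot be told from one of bright spots.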
